A study of Caenorhabditis elegans with 6 samples.

Results

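The centre of chromosome III was taken as the windows of the *Caenorhabditis elegans* ce10 assembly whose midpoint lay in the 6.6 Mb that begin at 3.7 Mb (chrIII:3699918-10299856). It held 6600 of the 100293 windows of about 1 kb in the deposited table. Of these, 6579 had a read in at least 1 library, among 99485 such windows in all. The remaining windows of the chromosome formed the left arm (3691 windows with a read) and the right arm (3475). The members were chosen by position alone, without any measured value.

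In *C. elegans* the autosomes have no point centromere, and their arms and centres differ in their chromatin. The arms are rich in repeats and in histone H3 methylated at lysine 9 (H3K9me2 and H3K9me3), which marks heterochromatin, and are held near the nuclear envelope. The gene-dense centres carry more of the marks of active chromatin, among them acetylation of H3 at lysine 27 (H3K27ac), found at active promoters and enhancers. MET-2, a SETDB1-like methyltransferase, places H3K9me1 and H3K9me2, and SET-25 places H3K9me3.

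The study mapped the marks in body wall muscle sorted from L3 larvae, to ask where H3K9 methylation lies in a differentiated tissue and how H3K27ac looks without MET-2. ChIC-seq was used, a form of CUT&RUN in which an antibody directs protein A fused to micrococcal nuclease (MNase) to a mark and the fragments cut nearby are sequenced. There were 6 groups of 1 library each. Wild-type cells (labelled N2 (Bristol)) gave H3K9me2, H3K9me3, H3K27ac and an MNase control without antibody, and cells of the mutant met-2(n4256) III gave H3K27ac and an MNase control. Per the methods, muscle cells were sorted by a red fluorescent protein under the *myo-3* promoter, which all groups then carry although the labels name only the strains above. Each library came from a small number of fixed, sorted cells, and no H3K9 methylation library of the mutant was analysed here. No ce10 annotation was used, so windows are given by position, no gene is named at them, and the muscle identity of the cells was not checked against marker genes.

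With 1 library per group no spread between replicates could be estimated and no p-value is given. Every difference below is one between 2 libraries, and the intervals cover counting error or the number of windows only. The libraries totalled 2475550 to 28519008 reads. The *met-2* control was the shallowest, and its median window in the centre held 23 reads, compared with 83 for the control of the wild type, 162 and 265 for H3K27ac (WT, then *met-2*), 217 for H3K9me2 and 269 for H3K9me3. The *met-2* control therefore limits every value that uses it. Levels are reads scaled to the average library total, on a log2 scale after adding a pseudocount of 8, and a call means a difference over 0.5 on that scale.

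The centre of III held more of the H3K27ac reads than its size alone would give. It made up 6.61% of windows with a read and received 8.18% of WT H3K27ac reads (95% exact interval 8.17 to 8.19), which is 1.24 times its share of windows. The share was 7.66% in *met-2* H3K27ac (7.65 to 7.68; 1.16 times). H3K9me2 had 6.93% of its reads there (1.05 times) and H3K9me3 had 6.602% (0.998 times). The controls were also above the average, at 7.29% in WT (1.10 times) and 7.05% in *met-2* (1.07 times). The centres of the other autosomes (borders of the study's methods) had H3K27ac at 1.199 times the average in WT and 1.149 in *met-2*. An H3K27ac excess was therefore not particular to the centre of III.

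Both flanking arms lay below the genome average for H3K27ac. WT H3K27ac reached 0.866 times the average in the left arm and 0.925 in the right, and *met-2* H3K27ac reached 0.891 and 0.967. H3K9me3 was at 0.934 and 0.885, so that its level per window was also slightly higher in the centre than in either arm. The WT control was at 0.916 in the left arm and 1.04 in the right, and the *met-2* control at 0.822 and 0.901. The part of the controls' own distribution in the levels of the marks was not tested.

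Along the segment the H3K27ac excess was broad. In 65 of the 66 bins of 100 kb WT H3K27ac was above the genome average, against 16 of 72 bins in the arms, with a range over the centre of 0.575 to 1.38 times that average. The same held for *met-2* H3K27ac in 62 of 66 bins (0.554 to 1.29). H3K9me3 was above the average in 33 of 66 bins (0.55 to 1.18) and H3K9me2 in 46 (0.591 to 1.27), against 7 and 25 of 72 arm bins. The WT control was above it in 49 bins of the centre and 32 of the arms, and the *met-2* control in 46 and 8. Acetylation was thus above the average across most of the centre, while H3K9 methylation per window lay close to it. More bins above the average in the centre than in the arms were also seen in both methylation marks and in both controls, so this was not particular to acetylation.

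**Figure D1:**
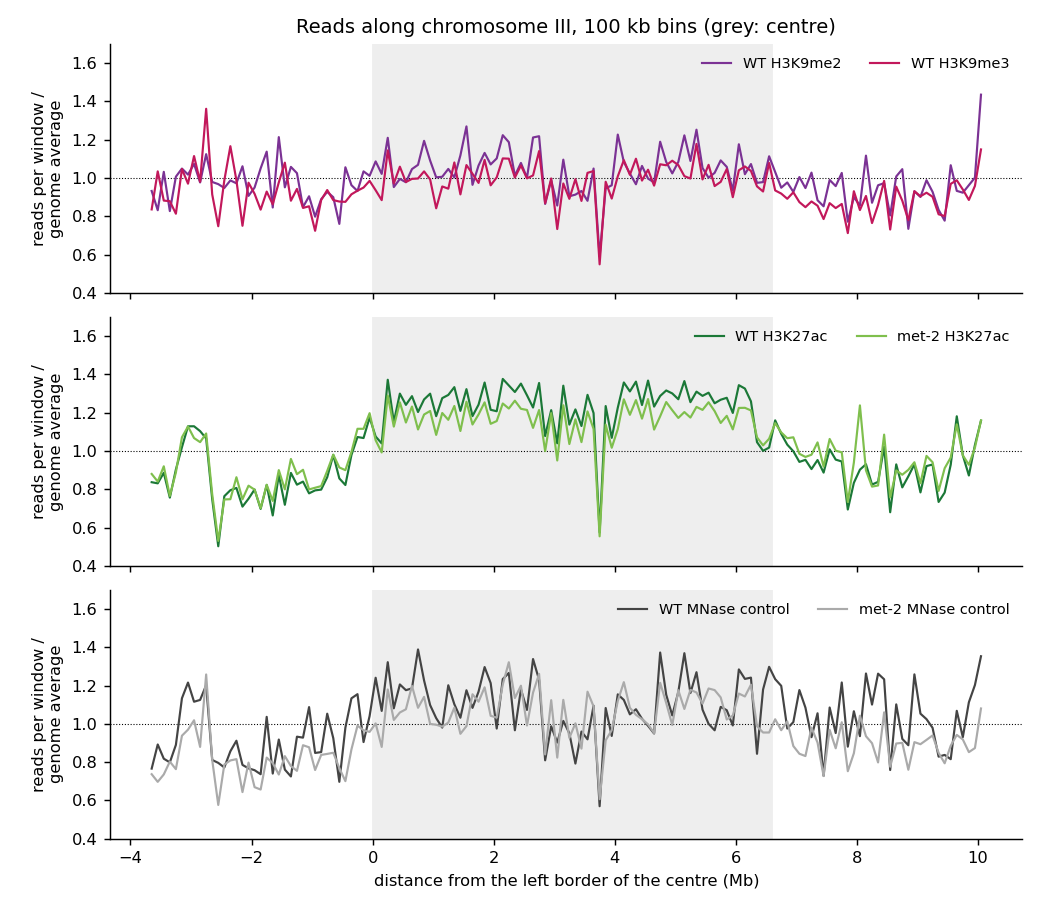
Reads per window over the genome average (y axis, a ratio) in 100 kb bins along chromosome III, against distance from the left border of the centre in Mb (grey, the centre), for the 6 libraries. H3K27ac is above 1 in 65 of 66 centre bins in WT and in 62 in *met-2*, and all 6 libraries dip to between 0.55 and 0.607 in 1 bin, 3.7 to 3.8 Mb from the border.

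The dip seen in all 6 libraries was a single bin, chrIII:7399883-7499881. It held 13455 H3K9me2 reads, 14970 H3K9me3 reads, 7498 WT and 12431 *met-2* H3K27ac reads, and 5378 WT and 1434 *met-2* control reads, at 0.591, 0.55, 0.575, 0.554, 0.57 and 0.607 times the genome average. It was the lowest of the 66 bins in every library. Only 95 of its 100 windows had a read, and all 5 empty ones lay between positions 7412883 and 7449882. Of the 21 windows of the centre without a read in any library, 11 others lay in chrIII:8336875-8342874 and chrIII:8345875-8350874. Why these windows were empty or low was not tested.

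H3K9me3 was low relative to H3K27ac along the whole centre. The median window had 0.29 log2 units less H3K9me3 than H3K27ac in WT (median -0.29, 95% interval over windows -0.30 to -0.28), whereas the medians were 0.09 in the left arm and -0.05 in the right arm. In the centre 152 windows (2.31%) had H3K9me3 over H3K27ac by more than 0.5, against a background of 17.2% of all windows, 21.7% of the left arm and 11.3% of the right. The opposite call, H3K27ac over H3K9me3, was made for 1842 windows (28.0%; background 15.4%). This comparison uses no control. Its median in the centre was also -0.29 under another scaling of the libraries (TMM, edgeR's trimmed mean of M-values). That scaling could hardly move it, since the TMM factors of H3K9me3 and WT H3K27ac were 1.0584 and 1.0598. The position of 0 rests on scaling libraries of different antibodies to equal totals, which was not tested.

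The bins gave the same picture without exception. The median of H3K9me3 minus H3K27ac was below 0 in 66 of 66 bins of the centre (-0.44 to -0.02) and in 36 of 72 arm bins (-0.30 to 0.58). The bins below 0 formed an unbroken run of 82 bins, chrIII:3299921-11499844, which extended past the chosen borders on either side. The lowest median lay in the left part of the centre and the highest (-0.02) in the bin with the fewest reads. Borders set at the positions in the study's methods gave the same median in the centre (-0.30) and the same difference from the arms (-0.31).

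**Figure D2:**
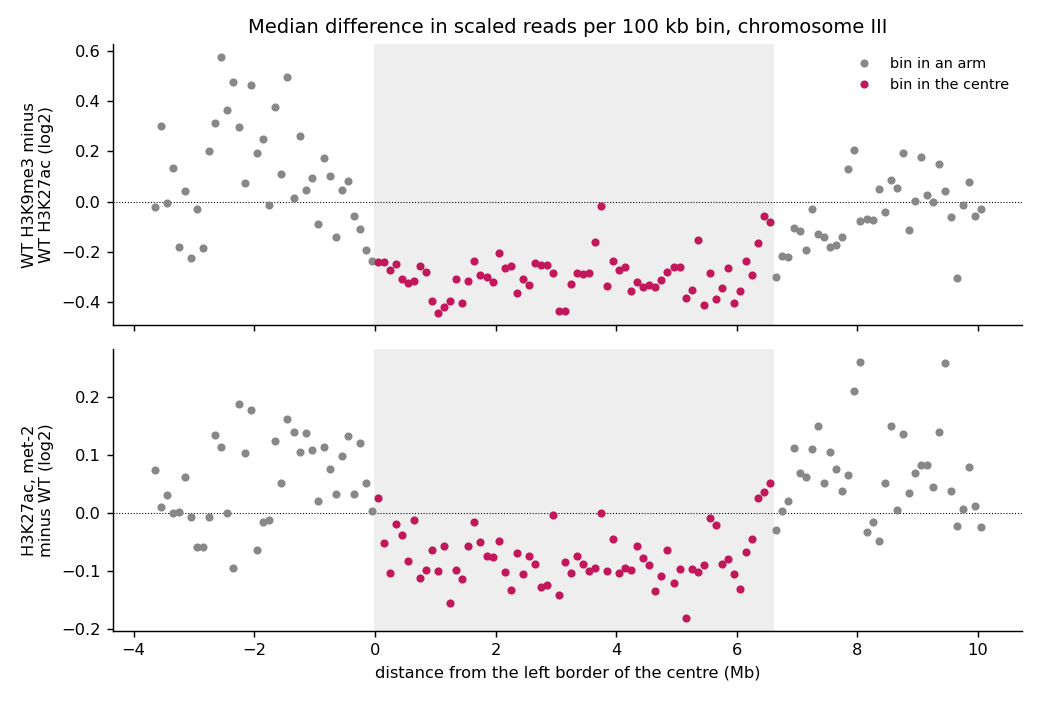
Median log2 difference per 100 kb bin along chromosome III, against distance from the left border of the centre in Mb (grey, the centre; red, its bins; grey points, arm bins). Top, WT H3K9me3 minus WT H3K27ac, below 0 in all 66 centre bins; bottom, H3K27ac in *met-2* minus WT, below 0 in 61 of 66.

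Other autosomes showed differences of similar size between their centres and arms. With the borders of the methods, the median of H3K9me3 minus H3K27ac was lower in the centre than in the arms by 0.31 on III (centre minus arms -0.31). The same quantity was -0.27 on I, -0.41 on II, -0.29 on IV and -0.46 on V. The centre of III had the lowest centre median of the 5, at -0.30, against -0.28 on I. The spread expected between libraries for such differences is unknown.

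H3K9me2 was also low relative to H3K27ac, with more exceptions. The median in the centre was -0.36 (left arm -0.003, right arm -0.13). H3K9me2 exceeded H3K27ac by more than 0.5 in 675 windows (10.26%; background 19.8%), and H3K27ac exceeded H3K9me2 in 2678 (40.7%; background 30.0%). Both H3K9 methylation marks exceeded H3K27ac in 71 windows (1.08%; background 8.51%), which is 46.7% of the H3K9me3 list and 10.5% of the H3K9me2 list. These lists share the H3K27ac library.

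**Figure D3:**
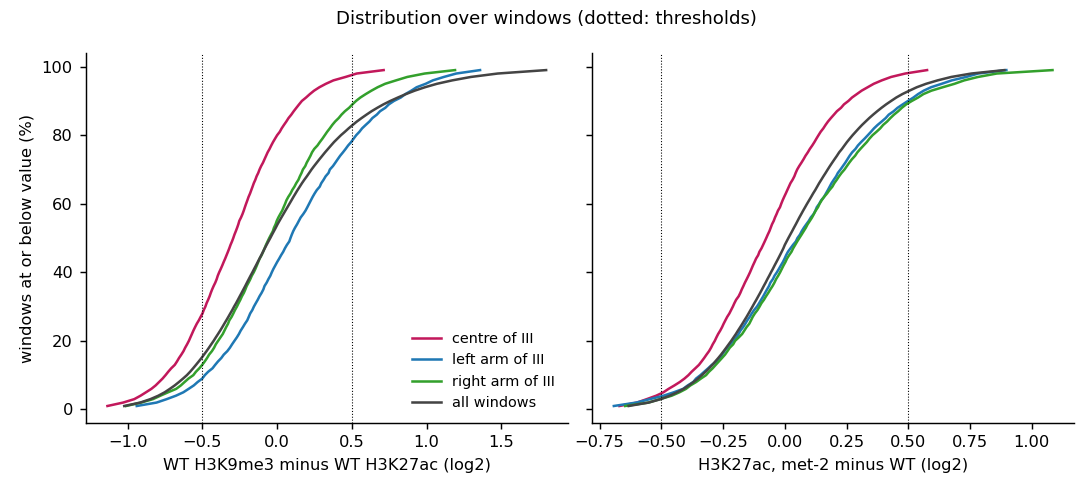
Percent of windows (y axis) at or below a value (x axis, log2) in the centre, both arms and all windows, for WT H3K9me3 minus WT H3K27ac (left) and H3K27ac in *met-2* minus WT (right). Dotted lines mark -0.5 and 0.5; in the centre 2.31% of windows lie above 0.5 in the left panel and 1.79% in the right.

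Against the WT MNase control, WT H3K27ac was enriched in more windows of the centre than either methylation mark. WT H3K27ac was enriched over the WT control in 3120 windows (47.4%; background 41.8%). This compares with 40.0% of the left arm, 38.2% of the right and 48.97% of the centres of the other autosomes. H3K9me3 was enriched in 2342 windows (35.6%; background 42.7%) and H3K9me2 in 2161 (32.8%; background 36.1%). Both methylation marks were enriched in 1551 (23.6%; background 27.5%), which is 66.2% of the H3K9me3 list and 71.8% of the H3K9me2 list, over the same control. Of these windows, 1493 were also enriched for WT H3K27ac over that control (22.7% of the centre, background 23.5%). H3K9me3 and WT H3K27ac enrichment, which share the control, correlated at a Spearman coefficient of 0.910 across the centre. *met-2* H3K27ac was enriched over its own control in 2253 windows (34.2%; background 31.0%; 31.7% of the centres of the other autosomes).

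The median H3K9me3 enrichment was 0.15 in the centre, 0.41 in the left arm and 0.19 in the right, and that of H3K9me2 was 0.12, 0.28 and 0.05. With TMM scaling the centre medians were -0.13 and -0.036, so a direction against the control cannot be given. The centre was below the pooled arms under both scalings. TMM cannot test that difference, because its single factor per library moves centre and arms almost alike. WT H3K27ac kept a positive median (0.44, or 0.16 with TMM). Both methylation medians were thus lower in the centre than in the left arm, and for H3K9me2 the right arm was lower still. With the borders of the methods, centre minus arms for H3K9me2 was -0.048 on III. It was above 0 on the other autosomes (0.046 on I, 0.028 on II, 0.065 on IV and 0.043 on V). For H3K9me3 it was -0.15 on III, 0.006 on I, -0.062 on II, -0.11 on IV and -0.053 on V.

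Much of the enrichment depended on which control was used. The controls of the genotypes differed by more than 0.5 in 4118 of 6579 windows (62.6%; background 64.8%). The *met-2* control was the higher in 34.5% (background 37.9%). The reads of both controls correlated at a Spearman coefficient of 0.344 across these windows. Enrichment over both controls was seen for H3K9me3 in 759 windows (11.5%; background 16.2%), or 32.4% of those enriched over the WT control. For H3K9me2 it was seen in 843 (12.8%; background 14.4%), or 39.0%. By comparison, H3K27ac reads of WT and *met-2* correlated at 0.863 and H3K9me3 reads with WT H3K27ac reads at 0.758, across the same 6579 windows, which are not independent.

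The longest runs of windows enriched for H3K9me2 or H3K9me3 over the WT control were 13 windows long. At chrIII:7038887-7051886 the reads numbered 2748 for H3K9me2, 4531 for H3K9me3, 2289 for H3K27ac (3958 in the mutant), and 614 for the WT control (402 in the mutant). Scaled H3K9me3 was 2.56-fold the WT control (2.35 to 2.79) but 0.978-fold the *met-2* control (0.883 to 1.09). In this run the controls themselves differed 2.61-fold, and H3K27ac did not differ between genotypes beyond counting error (1.01-fold, 0.955 to 1.06).

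The run at chrIII:9425865-9438864 behaved in the same way, with 3966 H3K9me3 reads, 589 WT control reads and 332 *met-2* control reads. H3K9me3 was 2.33-fold the WT control (2.14 to 2.55) and 1.04-fold the *met-2* control (0.93 to 1.16). The next run, chrIII:6330893-6340892 with 10 windows, had H3K9me3 at 1.69-fold the WT control and 0.805-fold the *met-2* control. It was led by H3K9me2, which was 2.39-fold the WT control and 1.14-fold the *met-2* control (1.001 to 1.30). In these 3 runs no interval of H3K9me3 over the *met-2* control lay above 1, and that of H3K9me2 did so in the last. WT H3K27ac was also raised over the WT control, at 2.70-fold, 2.88-fold and 1.88-fold. These values were above those of H3K9me3 in each run, though below that of H3K9me2 in the last. The WT control was at 0.476, 0.456 and 0.474 times the genome average there. As the runs were chosen over that control, its gap to the *met-2* control is partly fixed by the choice.

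Most runs of windows with H3K9me3 over H3K27ac were single windows. The 152 windows formed 108 runs, of which 89 were single windows, and 5 runs had 5 or more windows. In the left arm 802 such windows formed 379 runs, the longest 15 windows, and 26.1% of the windows stood alone. In the right arm 392 formed 282 runs and 56.1% stood alone, against 58.6% in the centre. Such windows made up 21.7% of the left arm, 11.3% of the right and 2.31% of the centre. Windows that are fewer stand alone more often, so these shares do not compare clustering, which was not tested. Across the 152 the median window held 265.5 H3K9me3, 138 H3K9me2, 73 WT H3K27ac and 150 *met-2* H3K27ac reads. Of the 152, 96 were above the WT control and 56 were above both controls for H3K9me3, and 20 lay in the low-read bin described above. The 5 longest runs are described next from left to right, and they were singled out after values were seen.

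The run at chrIII:5353902-5358901 (5 windows) had 1439 H3K9me2, 1874 H3K9me3, 337 WT H3K27ac, 625 *met-2* H3K27ac, 399 WT control and 102 *met-2* control reads. H3K9me3 was 2.66-fold H3K27ac (2.37 to 3.00), and it was above both controls, at 1.63-fold and 1.59-fold. H3K27ac was little different in *met-2* (1.08-fold, 0.943 to 1.24). It is a run in which low acetylation and raised methylation coincide, and the controls were at a ratio of 1.02 (0.813 to 1.27).

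The run at chrIII:7443883-7448882 (5 windows, in the low-read bin) had 1278 H3K9me2, 1766 H3K9me3, 230 WT H3K27ac, 466 *met-2* H3K27ac, 498 WT control and 212 *met-2* control reads. H3K9me3 was 3.68-fold H3K27ac (3.20 to 4.24), the highest of the 5 runs, but only 1.23-fold the WT control and 0.723-fold the *met-2* control. Acetylation was the low side of this ratio. The window with the highest value of the centre, chrIII:7444883-7445882, lay in it, with 148 H3K9me3 reads against 12 of WT H3K27ac.

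The run at chrIII:8441874-8448873 was the longest, with 7 windows. Its reads were 3877 for H3K9me2, 3277 for H3K9me3, 698 for H3K27ac (1089 in the mutant), and 2253 for the WT control (196 in the mutant). H3K9me2 was 3.18-fold H3K27ac (2.93 to 3.45) and H3K9me3 2.25-fold (2.07 to 2.44). The WT control was higher than both marks here (H3K9me3 0.504-fold the WT control), while against the *met-2* control H3K9me3 was 1.45-fold.

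The run at chrIII:9049868-9055867 (6 windows) was led by H3K9me2, with 4335 reads against 3180 for H3K9me3, 873 for H3K27ac (1268 in the mutant), and 1317 for the WT control (192 in the mutant). H3K9me2 was 2.84-fold WT H3K27ac (2.64 to 3.06) and was above both controls (1.36-fold and 2.34-fold). H3K27ac was slightly lower in *met-2* (0.845-fold, 0.774 to 0.922).

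The run at chrIII:10223857-10228856 (5 windows) had the most H3K9me3 reads of the 5. It held 2359 H3K9me2, 6062 H3K9me3, 1061 WT H3K27ac, 2545 *met-2* H3K27ac, 664 WT control and 368 *met-2* control reads. H3K9me3 was 2.74-fold H3K27ac (2.56 to 2.92), 3.16-fold the WT control and 1.43-fold the *met-2* control. H3K27ac was 1.4-fold higher in *met-2* (1.30 to 1.50), alongside a control 2.21-fold higher in *met-2* (1.94 to 2.52). A single window, chrIII:10224857-10225856, accounted for 4729 of its H3K9me3 reads, and it was the window of the centre with the most reads of that mark.

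**Figure D4:**
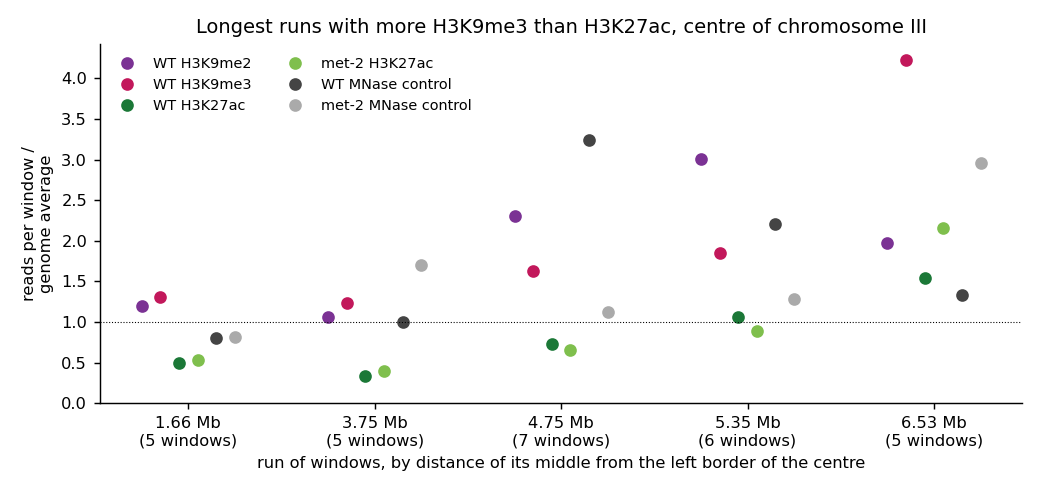
Reads per window over the genome average (y axis, a ratio) in the 6 libraries for the 5 longest runs of windows with more H3K9me3 than H3K27ac, labelled by the distance of their middle from the left border of the centre. WT H3K27ac lies below H3K9me3 in each, by 1.74-fold to 3.68-fold, while the controls differ from each other by up to 2.21-fold upward in *met-2* and down to 0.347-fold.

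H3K9me2 and H3K9me3 did not always occur together. H3K9me2 exceeded H3K9me3 by more than 0.5 in 1212 windows (18.4%; background 16.9%) and fell below it in 1464 (22.3%; background 28.8%). The balance between these lists depended on scaling, with 45.3% of the calls in favour of H3K9me2, and 58.7% with TMM. Reads of these marks correlated at 0.517, below the 0.758 of H3K9me3 with H3K27ac.

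In 41 windows (0.623%; background 0.639%) H3K9me2 was at least 2 log2 units above H3K9me3. They had 72 to 2891 H3K9me2 reads (median 948) against 6 to 494 H3K9me3 reads (median 226). H3K9me2 was also above H3K27ac in all 41 and above both controls in 33, whereas H3K9me3 was above H3K27ac in 2. Against the WT control, H3K9me2 was enriched in 34 of these windows and H3K9me3 in 4.

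The largest difference was at chrIII:9339865-9340864, with 1683 H3K9me2 and 197 H3K9me3 reads, 144 of H3K27ac (215 in the mutant), and 137 of the WT control (19 in the mutant) (log2 difference 3.27). chrIII:5470901-5471900 had 1786 H3K9me2 reads and 280 H3K9me3 reads, and chrIII:10015859-10016858 had 2030 and 338. The adjacent windows chrIII:5239903-5240902 and chrIII:5240903-5241902 had 2891 and 1588 H3K9me2 reads against 494 and 355 for H3K9me3. The 2891 reads were the most of any window of the centre for H3K9me2. With 62 and 28 WT control reads, these windows had the second highest and the highest H3K9me2 enrichment of the centre (4.17 and 4.34).

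A further run of 7 windows with H3K9me2 over H3K9me3, chrIII:6567891-6574890, had few reads in every library. There were 810 for H3K9me2, 375 for H3K9me3, 176 for H3K27ac (142 in the mutant), and 66 for the WT control (9 in the mutant). H3K9me2 was 5.08-fold the WT control (3.95 to 6.64), and H3K27ac was 0.469-fold in *met-2* (0.374 to 0.589). It is the only one of the 5 longest such runs in which H3K27ac differed between the genotypes by over 2-fold.

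H3K27ac was slightly lower in *met-2* than in WT across the centre, relative to each library's total. The median difference in reads was -0.075 (-0.083 to -0.067), against 0.05 in the left arm and 0.06 in the right. It was below 0 in 61 of 66 bins of the centre (-0.18 to 0.05) and in 14 of 72 arm bins. Other autosomes had differences in the same direction: with the borders of the methods, centre minus arms was -0.13 on III, -0.10 on I, -0.15 on II, -0.11 on IV and -0.11 on V. As the libraries are scaled to equal totals, a lower level in one place and a higher one in another cannot be told apart. The control reads moved in the opposite direction at the median (0.085 in the centre, 0.01 in the pooled arms), which TMM turned to -0.096, while the H3K27ac difference stayed below 0 (-0.093). TMM could move the H3K27ac difference only little, as its factors were 1.0598 for WT and 1.0733 for *met-2* H3K27ac.

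Few single windows changed by more than 0.5. There were 118 with more H3K27ac in *met-2* (1.79%; background 7.16%; 10.0% of the left arm and 10.7% of the right, and 2.57% of the centres of the other autosomes) and 301 with less (4.58%; background 3.07%). Of the 301 lower windows, 258 stood alone, as did 99 of the 118 higher ones. At this threshold the changed windows thus rarely adjoined one another. Few windows were called, and whether they adjoined more often than their number alone would give was not tested. Broad shifts smaller than the threshold would not appear in such runs. Taken against the controls, H3K27ac was called higher in *met-2* in 26.1% (background 28.2%) and lower in 37.4% (background 36.7%). With TMM the balance turned, to 32.4% higher and 31.0% lower, and the median went from -0.15 to 0.03. That difference followed the difference of the controls (Spearman coefficient -0.966 across 6579 windows, with both controls in each measure), so the reads alone are used here.

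The windows at either end differed in the level they started from. Those with more H3K27ac in *met-2* had a median of 90.5 WT and 248 *met-2* H3K27ac reads and 210 H3K9me3 reads, and a median H3K9me3 minus H3K27ac of 0.25. Those with less had 197 WT and 217 *met-2* H3K27ac reads and 264 H3K9me3 reads, and a median of -0.58. Both values contain the WT H3K27ac library, which also defines the lists, so the contrast between them is partly fixed by the choice.

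H3K9me3 and the H3K27ac difference share no library when H3K9me3 is taken over the WT control. In the centre the median H3K27ac difference was -0.047 (-0.059 to -0.037) in windows enriched for H3K9me3 and -0.093 (-0.10 to -0.083) in the others, so both groups were below 0. In the arms the medians were 0.13 (0.11 to 0.14) and 0.008. Windows of the centre enriched for H3K9me3 thus lay below those of either kind in the arms. By H3K9me3 reads alone the order was the opposite, with medians of the H3K27ac difference in the centre of -0.033, -0.060, -0.078 and -0.12 over 4 groups of windows, in order from the fewest H3K9me3 reads to the most, and of 0.14 and -0.039 in the lowest and highest such group of the arms. The direction of the relation thus depends on whether the WT control is used, and H3K9me3 reads also rose with WT H3K27ac reads (0.758, above). For H3K9me2 the medians in the centre were -0.074 and -0.076 for enriched and other windows.

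The last 300 kb of the segment, chrIII:9999859-10299856, had higher values than the remainder for the H3K27ac difference. Its 3 bins had the 3 highest medians of the H3K27ac difference in the centre, and over its 300 windows the median was 0.04 (-0.001 to 0.09), against -0.08 (-0.088 to -0.072) in the other 6279. The leftmost bin of the centre came next (0.03). H3K9me3 minus H3K27ac had a median of -0.12 there and -0.30 in the remainder. WT H3K27ac was at 1.02 times the genome average there, compared with 1.25 in the remainder, and *met-2* H3K27ac at 1.05 compared with 1.16. H3K9me3 was at 0.989 there and 0.999 in the remainder, so its own level was not higher. The WT control was at 1.11 and 1.10, and the *met-2* control at 0.966 and 1.07, and the part of the controls in these values was not tested. It also held 25 of the 152 windows with H3K9me3 over H3K27ac (8.33% of its windows, against 2.02%) and 21 of the 118 with more H3K27ac in *met-2* (7.00% against 1.54%). Past the right border the change was not steady. In the next bin, chrIII:10299857-10399855, the medians were -0.30 for H3K9me3 minus H3K27ac and -0.03 for the H3K27ac difference, close to those of the rest of the centre. In the bins after it the H3K27ac difference was 0.003, 0.02 and 0.11. At the left border H3K9me3 minus H3K27ac fell step by step, with -0.06, -0.11, -0.19, -0.24 and -0.24 in consecutive bins from chrIII:3299921 to chrIII:3799916. The borders in the study's methods place all of the last 300 kb of the segment in the right arm. This stretch was described after its values were seen.

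The highest single increase in H3K27ac was at chrIII:7712881-7713879, with 14 WT and 78 *met-2* H3K27ac reads (log2 difference 1.34), 102 H3K9me2, 112 H3K9me3, and 8 and 2 control reads. chrIII:10268857-10269856 had 32 and 136 H3K27ac reads (1.15), and it lies in the last 300 kb. Its neighbours extended it to 3 windows, chrIII:10268857-10271856, with 164 WT and 482 *met-2* H3K27ac reads (1.71-fold, 1.43 to 2.05). H3K9me3 over that run was 1.86-fold WT H3K27ac (1.57 to 2.23) and above both controls (2.26-fold and 1.98-fold).

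The deepest decrease in H3K27ac covered the adjacent windows chrIII:8375874-8376873 and chrIII:8376874-8377873. WT H3K27ac had 120 and 153 reads there and *met-2* H3K27ac had 49 and 36. From the WT reads and the library totals 469.4 reads were predicted over both, and 85 were found, or 18.1% (14.0 to 23.2). It was the lowest of the 6504 adjacent pairs of the centre with at least 50 predicted reads, and the next, chrIII:6570891-6572890, was at 21.8% with 48 WT reads and 18 *met-2* reads.

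The *met-2* control was low at the pair as well, with 15 reads where 38.3 were predicted from 153 WT control reads (39.1%, 21.4 to 66.6). The 6 windows on each side lay between 75.8% and 128% for H3K27ac and between 31.7% and 308% for the control, so H3K27ac at the pair was below all of its neighbours. The control in the first window of the pair was also below all of them, with 4 reads (18.4%, 4.89 to 48.7). The methylation libraries of WT had 234 and 131 H3K9me2 reads and 235 and 157 H3K9me3 reads in the pair, against 158 to 451 and 203 to 641 in the flanking windows, so the second window was below its neighbours in those libraries too. The labels place the mutated *met-2* gene on chromosome III, but its position in ce10 was not used here and these windows are assigned to no gene, so the genotype was not checked.

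**Figure D5:**
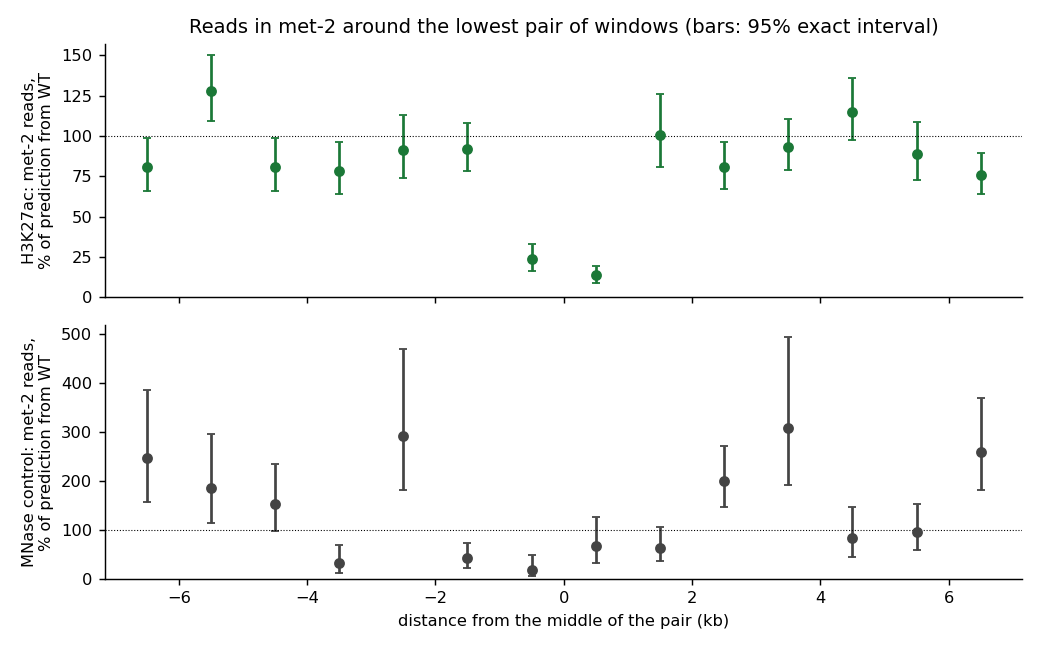
Reads in *met-2* as a percent of the number predicted from WT reads and library totals (y axis) in windows around the pair with the lowest H3K27ac, against distance from the middle of the pair in kb; bars are 95% exact intervals of counting error. H3K27ac (top) is at 18.1% over the pair and between 75.8% and 128% in the 12 other windows, while the control (bottom) ranges from 31.7% to 308% in those windows.

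The extreme enrichment values are given here with the reads of the control they use. The highest in any library were those of *met-2* H3K27ac at 3 windows with 0 reads in the *met-2* control, led by chrIII:7760880-7761879 (4.68), which had 171 WT and 273 *met-2* H3K27ac reads and 52 WT control reads. Against the floor of 3 control reads, H3K27ac there was at least 9.59-fold higher than the control. The window with the highest H3K9me3 enrichment (3.05), chrIII:9501864-9502863, had 551 H3K9me3, 204 H3K9me2 and 272 WT H3K27ac reads, 346 of *met-2* H3K27ac, and 19 WT and 35 *met-2* control reads. Its H3K27ac enrichment in WT was as high (3.09), and that in *met-2* was 0.06. The window with the lowest enrichment of all 3 WT marks, chrIII:5459901-5460900, had 33 H3K9me2, 13 H3K9me3, 26 WT and 13 *met-2* H3K27ac reads, and 272 WT but 6 *met-2* control reads. At both windows the controls of the genotypes lay far apart, in opposite directions. Highest and lowest here and above refer to windows averaging at least 20 scaled reads over the libraries.

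Some windows had many reads in every library. chrIII:5008906-5009905 had the most WT H3K27ac reads of the centre (763), together with 1493 H3K9me2, 1069 H3K9me3, 994 *met-2* H3K27ac, 686 WT control and 69 *met-2* control reads, and it was below the WT control for H3K27ac (-0.31). chrIII:9789861-9790860 was different, since its 636 WT and 824 *met-2* H3K27ac reads stood beside 265 H3K9me2, 406 H3K9me3, 102 WT control and 56 *met-2* control reads. It had the lowest H3K9me3 minus H3K27ac of the centre (-1.68) and a WT H3K27ac enrichment of 2.12. Against the median windows of the centre, WT H3K27ac was raised most (636 against 162 reads). H3K9me3 (406 against 269) and the *met-2* control (56 against 23) were raised less. H3K9me2 (265 against 217) and the WT control (102 against 83) were closer to their medians.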

How the data were processed

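The deposited values were raw read counts of the 6 libraries in windows of the ce10 assembly, of 1000 bp in 6539 windows of the centre and 999 bp in 61. Per their methods, the authors trimmed reads (Trimmomatic 0.39, per the labels), aligned them with bowtie2, removed duplicates with the Bismark tool and counted with QuasR. The methods name narrower windows than the table holds. The handling of reads with several alignments and the use of the random molecular identifier were not stated, so counts over repeats are uncertain.

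Counts were brought to a common depth of 16977530 reads, the average of the 6 totals, then 8 was added and log2 taken. Enrichment was a mark minus the MNase control of its genotype, and 0.5 was the threshold. Fold values of runs and windows are ratios of scaled reads with exact conditional binomial intervals. Intervals of read shares are Clopper-Pearson, and those of medians are order statistics that treat windows as independent (95%). Both kinds leave out differences between libraries. The named regions were the 3 highest and 3 lowest windows by each measure with a mean of 20 or more scaled reads, the longest runs and the lowest adjacent pair. The rule covered the H3K27ac read difference between genotypes and the windows with most WT H3K27ac reads. It did not cover differences between marks, runs by measures without a control and the window with most H3K9me3 reads. Those were named after values were seen. Members and lists were chosen with earlier results of these data known. The scripts were tested on simulated data and used Python 3.11.15, pandas 2.3.3, scipy 1.17.1 and edgeR 4.0.16 (TMM only).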

Additional observations from a re-analysis of the deposited data

How the results depend on the processing

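Of 87 values under alternative settings, 64 stayed within 1.5 times the reported percent, or within the interval over windows of a centre-arm difference, and 23 did not. All the centre-arm differences kept their sign, and percents have none. For TMM this was nearly fixed in advance, as its single factor per library moves centre and arms almost alike. The medians of the centre itself were outside this count, and TMM turned them from 0.15 to -0.13 (H3K9me3), from 0.12 to -0.036 (H3K9me2), from 0.085 to -0.096 for the controls, from -0.066 to 0.055 for H3K9me2 minus H3K9me3 and from -0.15 to 0.03 for the H3K27ac enrichment difference. Summing to windows of 10 kb left H3K9me3 enriched in 8.79% of windows, H3K9me2 in 8.33%, H3K27ac in 25.8% (WT) and 10.2% (*met-2*) and both methylation marks in 4.09%, with 0% with more and 0.303% with fewer H3K27ac reads in *met-2*, 28.0% with controls apart and 1.06% with H3K9me3 over H3K27ac. The difference of centre and arms was then -0.055 for H3K9me3 and 0.28 for WT H3K27ac, against -0.15 and 0.21 at 1 kb. A threshold of 1, stricter by construction, gave 17.6%, 15.0%, 27.5%, 15.0%, 8.63%, 0.0304%, 0.122%, 34.5% and 0.486% for the same quantities in that order. With the MNase control of the other genotype the difference of centre and arms was -0.20 (H3K9me3), -0.15 (H3K9me2, -0.055 with its own control) and 0.14 (H3K27ac of WT). The percents of windows enriched for H3K27ac stayed within 1.5 times, but their order turned. They were 38.3% in WT and 44.7% in *met-2*, against 47.4% and 34.2% with their own controls. Apart from the threshold, the cause was not tested. TMM scaling moved the medians of all windows by -0.28 (H3K9me3 enrichment), -0.16 (H3K9me2), -0.28 (H3K27ac of WT) and -0.19 (difference of the controls). It moved the share of calls that were above rather than below from 59.0% to 41.8%, from 57.3% to 46.8%, from 74.8% to 59.4% and from 55.2% to 44.4% in that order, and from 41.1% to 51.1% for the H3K27ac enrichment difference. The 3 results without a control (H3K9me3 over H3K27ac in percent, its centre-arm difference and that of H3K27ac between genotypes) were added after seeing the data. No paired analysis was possible because there is 1 library in every group. Gene and marker lists were not run, as no ce10 annotation was used. The *met-2* control, with 23 reads in the median window, limits every enrichment in *met-2*.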
